A study of Mus musculus with 6 samples.

Results

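The genes described here encode potassium channels and their accessory subunits, taken from an expression array study of whole mouse kidney. They were chosen by name: array features (transcript clusters) with a single platform gene symbol made of Kcn, letters and a digit, leaving out Kcnj1 and the antisense transcript Kcnq1ot1. This gave 88 genes, each with 1 cluster, and 61 of them had a mean above the filter on low signal, 4.03 on the log2 scale, out of 22098 genes tested in all. The lowest mean kept was that of Kcnd2 at 4.04, and the highest left out was that of Kcnu1 at 3.99. The RNA was that of frozen kidneys taken at postnatal day 63. The mice were females of the Pkd1 miR transgenic line, which models polycystic kidney disease by lowering Pkd1 with an artificial microRNA. From day 35 on, 3 of them were given metformin, a biguanide drug for diabetes, injected into the peritoneum (150 mg/kg daily), and 3 were injected with saline. Each of the 6 mice carried the transgene, no mouse without it entered the comparison, and its promoter is not named in the labels.

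Potassium channels let potassium ions cross membranes down their gradient. In kidney tubules they set the membrane voltage that drives transport, return potassium that the sodium pump brought in, and secrete potassium into the urine. Inward rectifiers (Kcnj) and tandem-pore channels (Kcnk) carry much of the resting conductance, voltage-gated and calcium- or sodium-activated channels open on demand, and accessory subunits change the gating or traffic of the pore-forming ones. In bulk tissue fewer cells of a type and less RNA per cell cannot be told apart, which holds for every difference below.

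The array medians lay between 4.73 and 4.86 in metformin kidneys and between 4.67 and 4.74 in saline kidneys, and arrays correlated across clusters at 0.984 to 0.993 between groups, 0.994 to 0.996 within metformin and 0.993 to 0.995 within saline. All 12 proximal tubule markers and all 7 markers of the thick ascending limb were past the filter on low signal, as were all 8 macrophage and all 5 urothelium markers. So were 6 of 8 adipocyte, 5 of 11 neuronal and 3 of 6 skeletal muscle markers. Passing the filter thus does not by itself tell tubule cells from other cells. Of all genes tested, 15.8% passed an adjusted p of 0.05, 6.71% higher and 9.08% lower in metformin kidneys. Higher genes made up 42.5% of those past the threshold. Their share was 25.2% once arrays were centred on their medians and 20.7% with quantile normalization, which put the median change of all genes at -0.10, against 0.02 as deposited. With every cluster past the filter tested singly, clusters with no gene symbol included, the balance was the other way, at 71.4% higher (5553 higher and 2220 lower).

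Metformin and saline kidneys were compared to see which of these channel transcripts differed after treatment. In metformin kidneys 5 of the 61 genes fell and 1 rose, and 55 did not pass the threshold. Those that fell were the inward rectifiers Kcnj13 (3.34-fold) and Kcnj8 (1.59-fold), the tandem-pore channel Kcnk1 (1.64-fold) and the accessory subunits Kcnip2 (1.53-fold) and Kcne1 (1.37-fold). The sodium-activated channel Kcnt2 rose 1.60-fold as deposited. The 6 genes are 9.84% of the members, against 15.8% of all genes, so the share called was no higher among potassium channel genes than on the whole array. By direction, 8.20% of members were called lower, near the 9.08% of all genes, and 1.64% higher, against 6.71% of all genes. The median change of the members was -0.01, against 0.02 for all genes tested. In 15 members (24.6%) metformin and saline values were fully apart, 5 higher and 10 lower, where this held for 37.2% of all genes, 17.8% higher and 19.4% lower. Each of the 6 calls was made among the 32 members with a mean more than 1 log2 unit above the filter, and none among the 29 members closer to it.

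These counts varied with the array left out, as did the number of all genes called. Such fits also hold fewer arrays and have less power, so a lost call does not show that 1 array carried it. The number of members lower and higher was 0 and 0 without saline replicate 1, 1 and 0 without metformin replicate 1, 2 and 0 without metformin replicate 2, 1 and 0 without metformin replicate 3, 5 and 0 without saline replicate 3, and as many as 5 and 3 without saline replicate 2. In the same order, 3.81%, 5.65%, 6.19%, 8.84%, 8.89% and 17.9% of all genes were called, against 15.8% with all arrays. With the replicate number as a block 6 were lower and 3 higher, and 19.8% of all genes were called. The additions under the block were Kcne4 (adjusted p = 0.0396), Kcnq1 (adjusted p = 0.0450) and Kcnk6 (adjusted p = 0.0352).

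The 250 bases before the RefSeq start of the genes past the threshold are shown because these are the members whose transcripts differed; 5 of the 6 have a window in the RefSeq table (build GRCm38.p6), and Kcne1 is named only. Each runs 5′ to 3′ on the gene's own strand, and capitals mark matches on either strand to TATAAA (the TATA box), CCAAT (written ATTGG where it lies on the other strand), GGGCGG (a GC box), AGGTCA (a nuclear receptor half-site) or TGACGTCA (the cAMP response element), which do not overlap here.
Kcnj13 (chr1:87394730-87394979, minus strand): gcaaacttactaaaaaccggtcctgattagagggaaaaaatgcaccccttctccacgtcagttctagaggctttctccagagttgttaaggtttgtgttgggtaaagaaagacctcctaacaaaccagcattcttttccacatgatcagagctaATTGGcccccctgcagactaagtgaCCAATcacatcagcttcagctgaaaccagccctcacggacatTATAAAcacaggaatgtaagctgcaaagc
Kcnj8 (chr6:142571615-142571864, minus strand): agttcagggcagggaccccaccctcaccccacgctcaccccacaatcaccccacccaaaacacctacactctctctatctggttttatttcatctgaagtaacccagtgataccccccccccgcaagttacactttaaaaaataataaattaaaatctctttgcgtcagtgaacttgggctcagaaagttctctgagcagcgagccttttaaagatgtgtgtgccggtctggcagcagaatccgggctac
Kcnk1 (chr8:125994852-125995101, plus strand): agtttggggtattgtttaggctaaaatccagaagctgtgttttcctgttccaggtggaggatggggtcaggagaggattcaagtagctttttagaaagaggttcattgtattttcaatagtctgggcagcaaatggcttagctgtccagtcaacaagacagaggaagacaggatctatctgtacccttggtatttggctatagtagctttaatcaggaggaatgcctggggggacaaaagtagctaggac
Kcnip2 (chr19:45816064-45816313, minus strand): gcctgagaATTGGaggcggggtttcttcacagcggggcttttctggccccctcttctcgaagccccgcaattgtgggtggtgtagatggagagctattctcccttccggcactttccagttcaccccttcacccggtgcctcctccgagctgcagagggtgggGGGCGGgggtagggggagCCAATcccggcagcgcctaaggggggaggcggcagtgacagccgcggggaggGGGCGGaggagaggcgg
Kcnt2 (chr1:140245468-140245717, plus strand): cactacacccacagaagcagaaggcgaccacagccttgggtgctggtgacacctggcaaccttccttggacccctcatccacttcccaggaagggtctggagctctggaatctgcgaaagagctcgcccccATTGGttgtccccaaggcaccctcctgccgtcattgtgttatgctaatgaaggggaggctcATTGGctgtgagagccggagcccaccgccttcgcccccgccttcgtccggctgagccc
The Kcnj13 window held TATAAA with its first base at -29 and CCAAT at -71 and, on the other strand, at -96. Kcnip2 held GGGCGG at -17 and -87 and CCAAT at -69 and, on the other strand, at -242. Kcnt2 held CCAAT on the other strand at -58 and -119, and the windows of Kcnj8 and Kcnk1 held none of the 5 motifs. None of the 5 windows shown held AGGTCA or TGACGTCA. Among all 32851 windows of the same length, TATAAA was found in 12.4%, CCAAT in 33.8%, GGGCGG in 32.7%, AGGTCA in 14.0% and TGACGTCA in 1.55%. The share of G and C was 66.8% for Kcnip2 and 61.6% for Kcnt2, above the upper quartile of all windows (61.2%), and 45.2% for Kcnj13, 49.2% for Kcnj8 and 44.4% for Kcnk1.

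**Figure D1:**
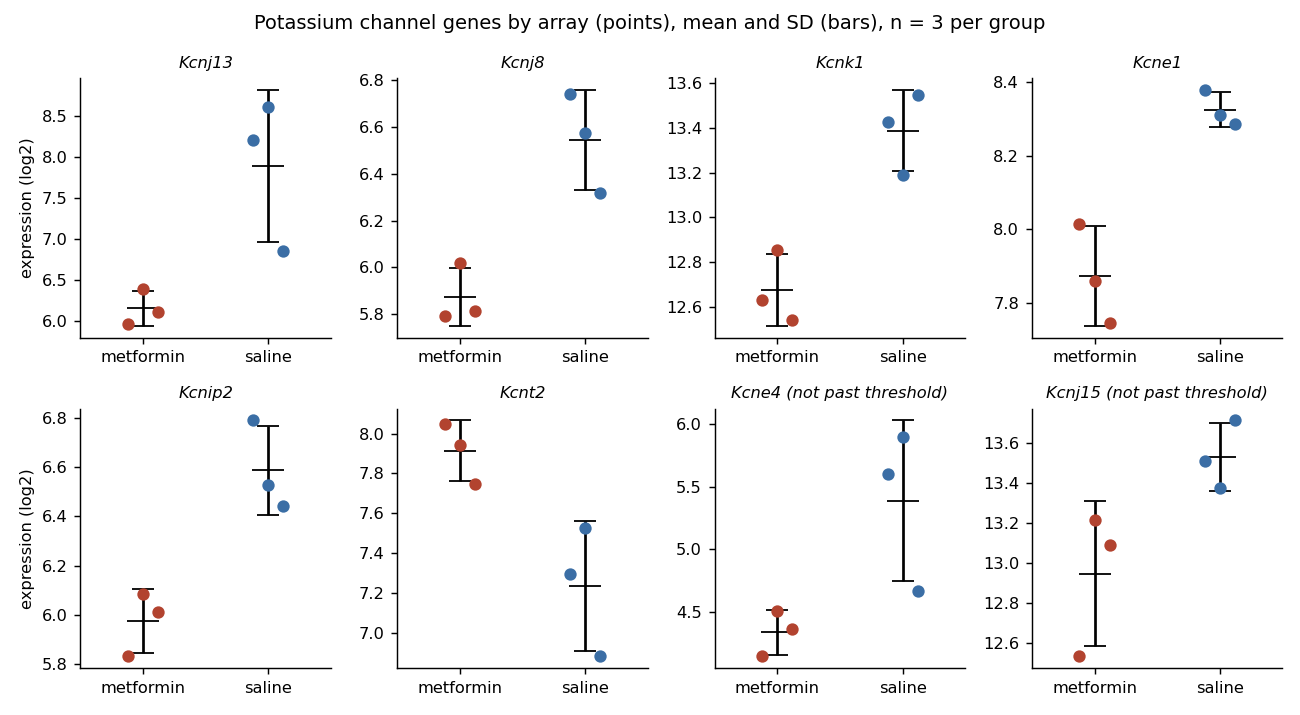
Expression (log2) of 8 potassium channel genes on each array, with metformin left of saline; points are arrays and bars the mean and SD of 3 arrays. The groups do not overlap in any panel, the 3 saline values of Kcnj13 run from 6.85 to 8.62, and Kcne4 and Kcnj15 did not pass the threshold.

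Among inward rectifiers, 9 of 14 genes passed the filter; 2 fell (22.2%, against 9.08% of all genes), none rose, and the median change was -0.12. Kcnj13, a weakly rectifying channel of transporting epithelia, had 5.96, 6.39 and 6.11 log2 units in metformin kidneys, against 8.21, 8.62 and 6.85 in saline kidneys. All 3 metformin values lay below the saline ones, and saline replicate 3 lay far nearer to them than the other saline arrays did. The change was -1.74 ± 0.41 (SE, limma; adjusted p = 0.0317), the greatest in size of the 61, and it was -2.26 when saline replicate 3 was left out and -1.38 when saline replicate 2 was. The adjusted p lay between 0.00441 and 0.116 over the fits that left out 1 array, with the call lost without saline replicate 1 or any 1 metformin array. The adipocyte marker list had a summed signal of 10.1 to 10.5 log2 units in metformin kidneys and 10.4 to 12.3 in saline kidneys. It was lowest in saline on replicate 3, as Kcnj13 was. For the list that array (10.43) lay below metformin replicate 3 (10.46), whereas the groups did not overlap for Kcnj13. All 6 adipocyte markers tested lay below 0, and Adipoq, the gene of the fat hormone adiponectin, was the 1 of them that passed (16.7%, against 9.08% of all genes). Saline replicate 3 was also the lowest saline array for other lists. Endothelium sums were 13.8 to 14.1 in metformin kidneys and 14.1 to 14.7 in saline kidneys. Urothelium sums were 8.72 to 9.54 in metformin kidneys and 9.29 to 11.7 in saline kidneys. Principal cell, smooth muscle and fibroblast sums had it lowest too. Macrophage and cell cycle sums, which were higher in metformin kidneys, also had it lowest. Proximal tubule, distal tubule and intercalated cell sums were lowest in saline on replicate 2. The part of fat tissue or of other cells in the change of Kcnj13 was not tested.

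Kcnj8 encodes the pore of the ATP-sensitive channel of vascular muscle and pericytes, which opens when ATP falls. It had 5.79, 6.02 and 5.81 log2 units in metformin kidneys, against 6.74, 6.57 and 6.32 in saline kidneys. The groups were apart by 0.30 at their nearest values, and the change was -0.67 ± 0.13 (SE; adjusted p = 0.0197). Its regulatory partner is the sulfonylurea receptor Abcc9, its neighbour on chromosome 6 in RefSeq. Abcc9 had 7.53, 7.88 and 7.69 in metformin kidneys, against 8.29, 8.43 and 8.44 in saline kidneys, a change of -0.69 ± 0.12 (SE; adjusted p = 0.0132). Both genes of this channel were thus lower in each metformin kidney than in any saline kidney. The call of Abcc9 held in 6 of 6 fits that left out 1 array, and that of Kcnj8 in 3, the losses being without saline 1, metformin 1 and metformin 3 (highest adjusted p = 0.0710). Of 8 smooth muscle and pericyte markers, the pericyte gene Rgs5 and the smooth muscle myosin Myh11 fell (25%, against 9.08% of all genes), and 4 of the 8 lay above 0. Their summed signal was 13.3 to 13.5 in metformin kidneys and 13.1 to 14.0 in saline kidneys, and the part of these cells in the change was not tested. The second ATP-sensitive pair, the pore Kcnj11 and its receptor Abcc8, which also neighbour each other, had changes of -0.01 (95% interval -0.23 to 0.21) and 0.06 (adjusted p = 0.968 and 0.749). Both lay close to the filter of 4.03. Kcnj11 had a mean of 4.08 in either group, and Abcc8 had 4.21 in metformin kidneys and 4.15 in saline kidneys. At such levels a difference could go unseen.

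**Figure D2:**
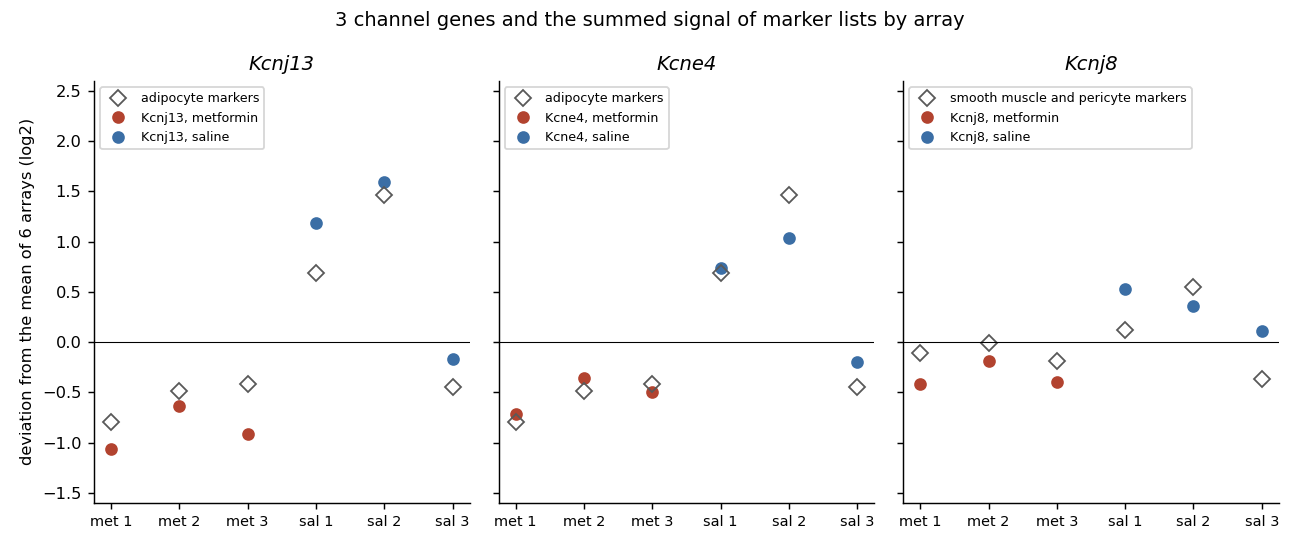
Deviation of Kcnj13, Kcne4 and Kcnj8 (filled points) and of the summed signal of a marker list (open diamonds) from the mean of the 6 arrays, in log2 units, for metformin and then saline arrays. Saline replicates 1 and 2 lie above 0 for Kcnj13, Kcne4 and the adipocyte markers, and saline replicate 3 lies below 0 for all 3.

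The inward rectifiers Kcnj10, Kcnj16 and Kcnj15 did not pass the threshold as deposited. Kcnj10 and Kcnj16 form the heteromeric basolateral channel of the distal convoluted tubule. Kcnj10 had 10.40, 10.52 and 10.38 in metformin kidneys, against 10.49, 10.25 and 10.47 in saline kidneys, and its change of 0.03 had a 95% interval of -0.21 to 0.27. Kcnj16 had 13.46, 13.65 and 13.73 in metformin kidneys, against 13.51, 13.78 and 13.94 in saline kidneys, with a change of -0.12 and an interval of -0.44 to 0.19. The groups overlapped for both, and both intervals lie within 1.5-fold. Kcnj15, an inward rectifier of the proximal tubule that also pairs with Kcnj16, had 12.53, 13.21 and 13.09 in metformin kidneys, against 13.51, 13.37 and 13.71 in saline kidneys. These did not overlap, but the change of -0.59 ± 0.19 (SE) missed the threshold (adjusted p = 0.0736), and it was -0.38 without metformin replicate 1, the lowest array. After quantile normalization it passed (adjusted p = 0.0490). Kcnj2, the neighbour of Kcnj16 on chromosome 11 and a classic strong rectifier, had a change of -0.31 (adjusted p = 0.286), and Kcnj12 and Kcnj14 had 0.15 and 0.09.

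Of 14 tandem-pore genes 9 passed the filter, 1 fell (11.1%, against 9.08% of all genes) and none rose, with a median change of -0.05. Kcnk1, a weakly conducting channel of the nephron, had 12.63, 12.86 and 12.54 in metformin kidneys, against 13.43, 13.19 and 13.54 in saline kidneys. The highest metformin value lay 0.33 below the lowest saline value, and the change was -0.71 ± 0.13 (SE; adjusted p = 0.0160). The call held in 4 of 6 fits that left out 1 array and was lost without saline 1 and without metformin 1 (highest adjusted p = 0.0676). Kcnk5, an alkali-activated channel of the proximal tubule linked to bicarbonate transport, had 11.15, 12.55 and 11.87 in metformin kidneys, against 12.36, 12.23 and 12.36 in saline kidneys. Metformin replicate 2 was above each saline value while replicate 1 was the lowest of the 6, and the change of -0.46 had an interval of -1.18 to 0.26 (adjusted p = 0.349). Kcnk6, a lysosomal and vascular relative of Kcnk1, had 6.15, 6.33 and 6.12 in metformin kidneys, against 5.63, 6.04 and 5.69 in saline kidneys. Its change of 0.42 ± 0.13 (SE) missed the threshold as deposited (adjusted p = 0.0731), though the groups did not overlap. It passed with the replicate block named above, and was 0.33 after median-centring (adjusted p = 0.184) and 0.24 after quantile normalization (adjusted p = 0.212). In the proximal tubule list all 12 genes lay below 0 with a median of -0.76, and 11 had groups that did not overlap (91.7%, against 19.4% of all genes). Those that passed were 2 of the 12 (16.7%, against 9.08% of all genes), Slc5a12 (lactate uptake) and Slc22a8 (organic anion uptake). The list had a summed signal of 19.3 to 19.9 in metformin kidneys and 20.1 to 20.4 in saline kidneys. Its lowest array was metformin replicate 1, as for Kcnj15 and Kcnk5. That array was also the lowest for the thick ascending limb, distal tubule, intercalated cell, endothelium and adipocyte sums. Principal cell sums were lowest on metformin replicate 3. The part of the proximal tubule or of other cells in these differences was not tested.

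**Figure D3:**
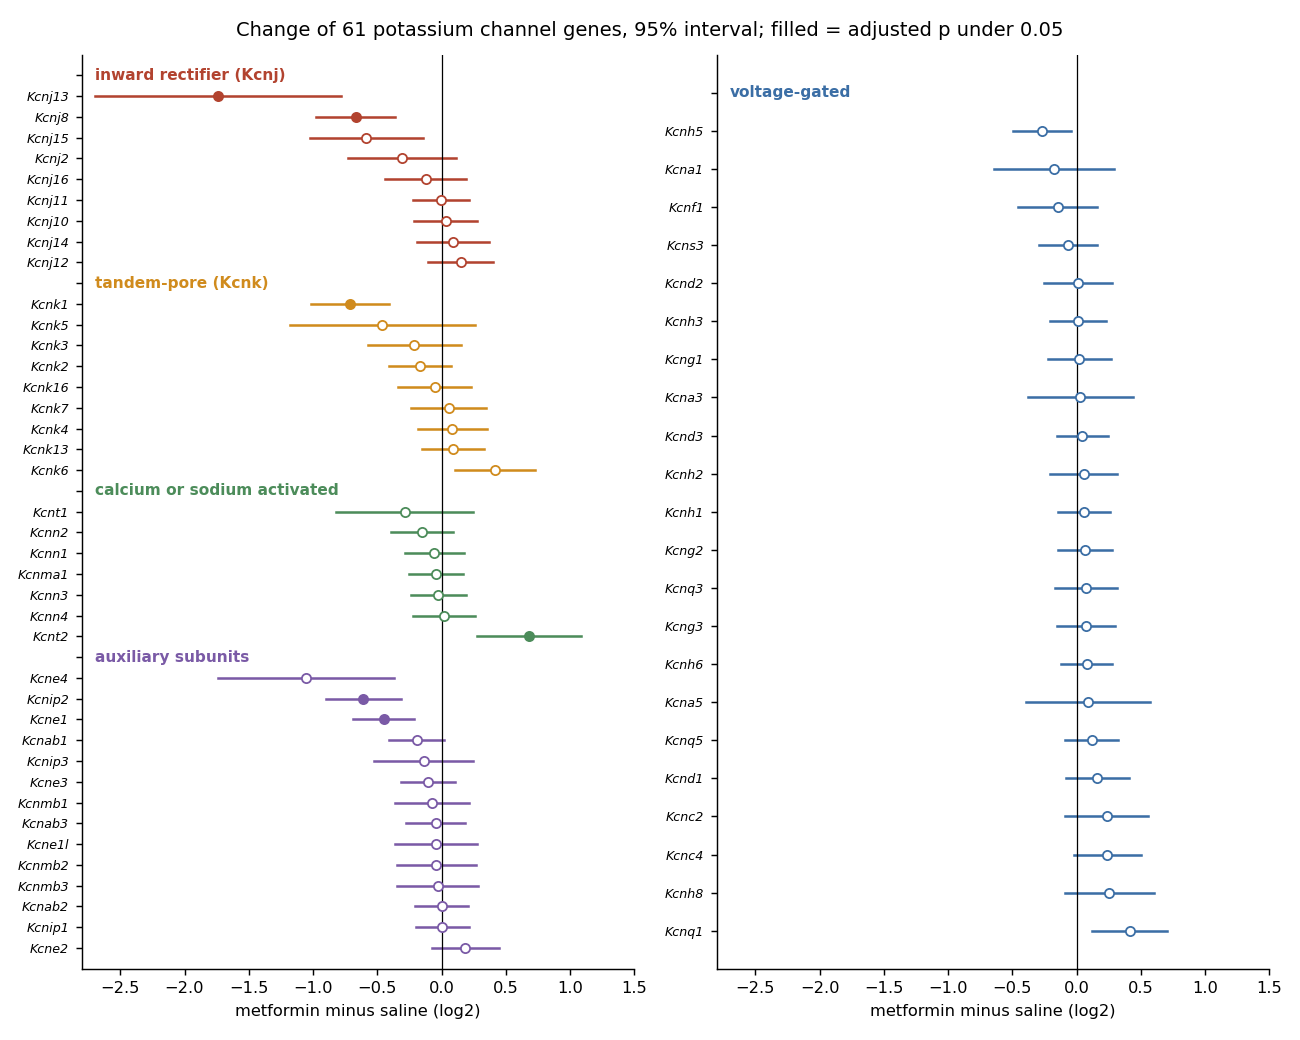
Change (metformin minus saline, log2) of the 61 genes by channel class, with 95% intervals of the limma fit; filled points passed an adjusted p of 0.05. Kcnj13 has the greatest change (-1.74) and the widest of the intervals of the genes that passed, Kcnt2 is the only filled point above 0, and none of the 22 voltage-gated genes is filled.

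Calcium- or sodium-activated channels had 7 of 8 genes past the filter, of which 1 rose (14.3%, against 6.71% of all genes). Kcnt2, which opens with intracellular sodium and chloride, had 8.05, 7.94 and 7.75 in metformin kidneys, against 7.29, 7.53 and 6.88 in saline kidneys. All metformin values lay above the saline ones, with saline replicate 3 the lowest. The change was 0.68 ± 0.17 (SE; adjusted p = 0.0396), and it kept its direction but not its call after median-centring (0.59, adjusted p = 0.0689) and quantile normalization (0.48, adjusted p = 0.0586). Of the fits that left out 1 array, 1 kept the call, that without saline replicate 2 (adjusted p = 0.0188), and the others gave up to 0.122. The macrophage markers had a summed signal of 14.26 to 14.54 log2 units in metformin kidneys and 11.99 to 13.86 in saline kidneys. All 8 lay above 0, and Lyz2, the lysozyme of phagocytes, was the 1 that passed (12.5%, against 6.71% of all genes). The cell cycle markers had 10.6 to 11.2 in metformin kidneys and 8.60 to 9.86 in saline kidneys. All 5 tested rose (100%, against 6.71% of all genes), among them the proliferation antigen Mki67. In saline kidneys both sums were highest on replicate 2 and lowest on replicate 3, as Kcnt2 was. Fibroblast, smooth muscle, adipocyte and principal cell sums had the same saline order. Of these, the adipocyte sum was 10.1 to 10.5 in metformin kidneys and 10.4 to 12.3 in saline kidneys. The part of any of these cells in the change of Kcnt2 was not tested. Its close relative Kcnt1 had a change of -0.29 (interval -0.82 to 0.25) with overlapping groups. The large-conductance calcium-activated channel Kcnma1, which secretes potassium when tubule flow is high, had 5.88, 5.89 and 6.03 in metformin kidneys, against 5.96, 5.99 and 5.98 in saline kidneys. The groups overlapped, and the change of -0.04 had an interval of -0.25 to 0.16. The small-conductance channels Kcnn1, Kcnn2 and Kcnn3 and the intermediate-conductance channel Kcnn4 ran from -0.15 to 0.02, with Kcnn1 at -0.06 (adjusted p = 0.731).

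Of 36 voltage-gated genes, many of them best known from neurons and muscle, 22 passed the filter and none was called by limma, against 15.8% of all genes. At an unadjusted p under 0.05 there were 2, against 32% of all genes. Many of the 22, such as Kcnh1 (mean 4.72), Kcnf1 (4.43) and Kcnq3 (4.37), lay within 1 log2 unit of the filter. None of the 29 members in that range was called, and a difference could go unseen there. These shares therefore do not set the class apart. Over the 22, changes ran from -0.27 to 0.41, with a median of 0.06. Of the 22, 18 lay above 0 on the deposited values, 6 once medians were centred and 7 with quantile normalization. Kcnq1, the pore that with Kcne1 recycles potassium at the brush border of the proximal tubule, had 8.60, 8.53 and 8.30 in metformin kidneys, against 7.99, 8.25 and 7.95 in saline kidneys. The groups did not overlap, and the change was 0.41 ± 0.13 (SE; adjusted p = 0.0635; interval 0.12 to 0.70). With medians centred it was 0.32 (adjusted p = 0.142) and with quantile normalization 0.24 (adjusted p = 0.127). Kcnh5, of the ether-à-go-go family, had 5.69, 5.57 and 5.53 in metformin kidneys, against 5.95, 5.77 and 5.88 in saline kidneys. Its change of -0.27 did not pass as deposited (adjusted p = 0.0980) and passed after median-centring (adjusted p = 0.0368) and quantile normalization (adjusted p = 0.0200). For the vascular channel Kcna5 the change was 0.09 (interval -0.39 to 0.57). Other members taken as the highest of their family had changes of 0.23 (Kcnc2), 0.07 (Kcng3), 0.04 (Kcnd3), -0.07 (Kcns3) and -0.15 (Kcnf1), all with adjusted p of 0.296 or more. Neuronal markers gave no call in 5 tested, with a summed signal of 7.18 to 7.49 in metformin kidneys and 7.24 to 7.44 in saline kidneys.

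Accessory subunits had 14 of 16 genes past the filter, of which 2 fell (14.3%, against 9.08% of all genes), none rose, and 12 lay below 0, with a median of -0.06. Kcne1, a single-pass partner of Kcnq1, had 8.02, 7.86 and 7.74 in metformin kidneys, against 8.38, 8.31 and 8.29 in saline kidneys. The metformin values spread by 0.14 (SD) and the saline values by 0.05, and the highest metformin value lay 0.27 below the lowest saline value. The change was -0.45 ± 0.10 (SE; adjusted p = 0.0277). Whether it differs from the change of its partner Kcnq1, which lay above 0, was not tested. The call of Kcne1 held without saline replicate 2 and without metformin replicate 1, and the other 4 fits lost it, at adjusted p up to 0.0990. Kcnip2, a calcium-binding partner of the Kcnd channels, had 5.83, 6.09 and 6.01 in metformin kidneys, against 6.79, 6.53 and 6.44 in saline kidneys. The groups did not overlap, and the change was -0.61 ± 0.12 (SE; adjusted p = 0.0213). It held when either saline replicate 2 or 3 was left out, and the highest adjusted p of the other 4 fits was 0.0719. The Kcnd channels that it serves, Kcnd1, Kcnd2 and Kcnd3, had changes of 0.16, 0.01 and 0.04, with adjusted p of 0.343 or more. Kcnd1 and Kcnd2 had means of 4.28 and 4.04, near the filter, where a difference could go unseen, and Kcnd3 had 5.47.

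Kcne4, an accessory subunit that dampens voltage-gated channels, lay at the edge of the threshold. It had 4.14, 4.50 and 4.36 in metformin kidneys, against 5.60, 5.90 and 4.67 in saline kidneys. The groups were apart by 0.16 at their nearest values, since saline replicate 3 lay near the metformin arrays, as for Kcnj13. The change was -1.05 ± 0.29 (SE; adjusted p = 0.0503), and -1.41 without saline replicate 3 (adjusted p = 0.0129). It passed after median-centring (adjusted p = 0.0481) and quantile normalization (adjusted p = 0.0448). The levels of the adipocyte and other marker lists given for Kcnj13 hold beside this result too, and their part was not tested. Kcnab1, Kcnip3 and Kcnmb1, the members with the highest mean in their families apart from Kcne1, had changes of -0.19 (adjusted p = 0.196), -0.14 (adjusted p = 0.614) and -0.07 (adjusted p = 0.724). Of these Kcnab1 passed after quantile normalization (-0.34, adjusted p = 0.0347).

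**Figure D4:**
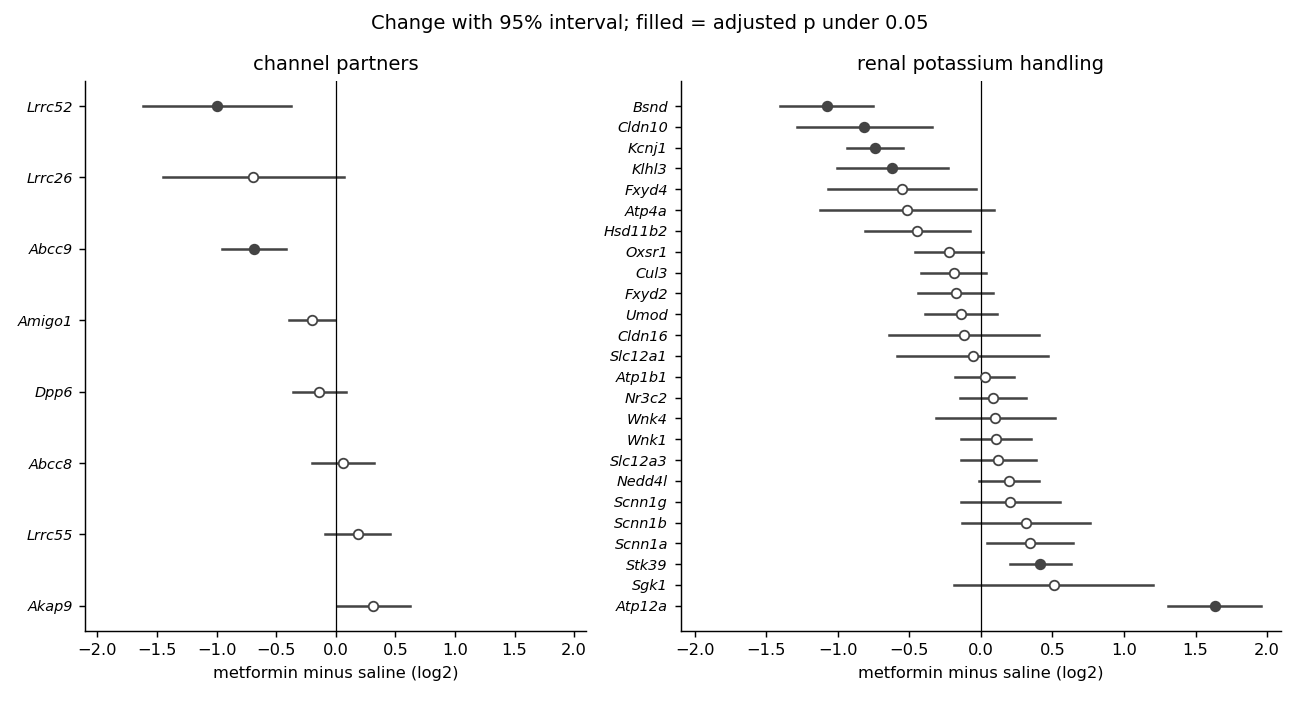
Change (metformin minus saline, log2) with 95% intervals for 8 genes of channel partners outside the Kcn names and 25 genes of renal potassium handling; filled points passed an adjusted p of 0.05. Lrrc52 and Abcc9 are filled at the left among the partners, and Atp12a at 1.63 is the farthest right among the handling genes.

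The list of channel partners was chosen with earlier results of these data known, so the share called in it is descriptive only. Of 8 partner genes outside the Kcn names 2 fell (25%, against 9.08% of all genes), none rose, and the median was -0.17. Beside Abcc9 this was Lrrc52, a leucine-rich accessory protein of the large-conductance channel family, with 6.50, 6.83 and 6.45 in metformin kidneys, against 7.78, 6.95 and 8.03 in saline kidneys. Saline replicate 2 lay only 0.12 above the highest metformin value, and the change was -0.99 ± 0.27 (SE; adjusted p = 0.0447), but -1.31 without saline replicate 2 (adjusted p = 0.00945) and past the threshold in no other fit that left out 1 array (adjusted p up to 0.149). With the replicate block its adjusted p was 0.0641. The scaffold Akap9, which ties kinases to Kcnq1, had a change of 0.31 (adjusted p = 0.146).

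The list of renal potassium handling was also chosen with earlier results known, so the shares called in it are descriptive only. Of its 25 genes 4 fell (16%, against 9.08% of all genes) and 2 rose (8%, against 6.71%), with a median of -0.06. Kcnj1, the luminal potassium secretory channel that the naming rule leaves out, had 13.04, 13.00 and 13.08 in metformin kidneys, against 13.75, 13.78 and 13.82 in saline kidneys, a change of -0.74 ± 0.08 (SE; adjusted p = 0.00735) that held in 6 of 6 fits without 1 array. Atp12a, the non-gastric pump that takes up potassium in exchange for protons, had 7.10, 7.29 and 7.34 in metformin kidneys, against 5.67, 5.82 and 5.35 in saline kidneys. Its groups lay far apart relative to their spread, with a change of 1.63 ± 0.14 (SE; adjusted p = 0.00667) that also held in 6 of 6. Bsnd, the barttin subunit of renal chloride channels, fell by 1.08 on the log2 scale and held in 6 of 6. The tight junction gene Cldn10 (-0.82), the ubiquitin ligase adaptor Klhl3 that degrades WNK kinases (-0.62) and the kinase Stk39 downstream of them (0.42) passed, each in 1 of 6 such fits, that without saline replicate 2. With the replicate block the adjusted p of Cldn10 was 0.0542, and after median-centring that of Stk39 was 0.0523. The sodium channel subunits Scnn1a, Scnn1b and Scnn1g, whose current drives potassium secretion, had changes of 0.34, 0.31 and 0.21 (adjusted p = 0.116, 0.305 and 0.388), and the thiazide-sensitive transporter Slc12a3 of 0.12 (adjusted p = 0.503). Distal tubule marker sums were 17.6 to 18.1 in metformin kidneys and 18.5 to 18.6 in saline kidneys, with no overlap. A sum weighs its strongest gene most, here Tmem52b, with means of 16.82 in metformin and 17.91 in saline kidneys. Of 7 distal tubule markers 3 fell (42.9%, against 9.08% of all genes), Tmem52b, Sgms2 and Klhl3, and 2 lay above 0, Slc12a3 and Trpm6. Principal cell sums were 16.6 to 17.0 in metformin kidneys and 16.8 to 17.5 in saline kidneys. Of 7 principal cell markers 2 fell (28.6%), Aqp3 and Avpr2, and 2 lay above 0. Intercalated cell sums were 14.0 to 14.4 in metformin kidneys and 14.7 to 15.0 in saline kidneys, with no overlap. Of 6 markers of these cells 3 fell (50%, against 9.08% of all genes) and 1 lay above 0. Those that fell were the proton pump subunit Atp6v0d2 and the anion exchangers Slc4a1 and Slc26a4. The part of any of these cells in the changes of the transport genes was not tested.

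For most of the members that did not pass, the intervals bound the change in array signal. Of the 55, 46 had a 95% interval within 1.5-fold in both directions, and 9 did not. The 9 were Kcne4, Kcnq1, Kcnk6, Kcnj15, Kcnh8, Kcnj2, Kcnk5, Kcnt1 and Kcna1. Of the 29 members within 1 log2 unit of the filter, only Kcne4, Kcnh8 and Kcna1 were among these 9. For the rest of the 29, a narrow interval at so low a signal does not show that the transcript was unchanged. The median standard error over the 61 was 0.11, and the SD ran from 0.01 to 0.70 in metformin kidneys and from 0.01 to 0.93 in saline kidneys, the last being that of Kcnj13.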

How the data were processed

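Kidney RNA of 6 mice was biotin-labelled (GeneChip WT PLUS reagents, per the labels' protocols). The authors deposited log2 values per transcript cluster, and the submitters' processing notes name RMA and Transcriptome Analysis Console 4.0. Neither the settings of RMA nor a genome build is stated there. Values run from 1.94 to 19.9 on the deposited scale, to which fold changes refer. Depth does not apply to arrays, and the number of arrays limits the precision. Levels of different clusters are not comparable.

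The table held 65956 clusters, 30604 with 1 gene symbol in the platform annotation. Symbols were updated through RefSeq (GRCm38.p6) by Entrez number (22818 matched). Clusters with a mean at or under a fixed low percentile of all clusters (4.03) were left out and the highest-mean cluster per gene was kept. Over these 22098 genes limma 3.58.1 (lmFit and eBayes, R 4.3.3) compared metformin with saline, two-sided and without covariates, with Benjamini-Hochberg adjustment across all of them. The fit was tested on simulated data. The labels call the samples biological replicates.

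Deviations from the group means correlated at 0.118, 0.145 and 0.541 for replicate numbers 1, 2 and 3, and at 0.299 for metformin 1 with saline 2. The same-number values pass the threshold of 0.1 used here for pairing. Since 0.299 lies above 0.118 and 0.145, they do not settle whether the numbers pair the samples, and the labels do not say what they stand for. The main fit ignores any pairing. With the replicate number as a block, 6 members were lower and 3 higher, and 4369 genes changed in all. The members and lists were chosen with earlier results of these data known. Named are members past the threshold, those at least 1.5-fold without overlap, the highest-mean member of each family (the letters after Kcn), the 3 largest changes each way, and genes of the partner and potassium handling lists past the threshold or with the 3 smallest p. Others named beside them, such as Kcnj10, Kcnk5, the Kcnd and Kcnn genes and single marker genes, were chosen after their values were seen. Marker sums are log2 of the summed linear signal.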

Additional observations from a re-analysis of the deposited data

How the results depend on the processing

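The number of genes changed was 3489. It was 842 to 3961 when 1 array was left out, 5486 at an adjusted p under 0.1 and 7773 over all clusters tested singly (5553 higher and 2220 lower). The number of potassium channel genes higher, 1, was 0 after median-centring or quantile normalization, 3 with the replicate block, with array weights or at an adjusted p under 0.1, and 0 to 3 when 1 array was left out. The number lower, 5, was 9 after quantile normalization, 8 at an adjusted p under 0.1 and 0 to 5 when 1 array was left out. Of all genes, 15.8% were called in the main fit, 16.4% after median-centring and 21.7% after quantile normalization. With the block this share was 19.8%, with array weights 19.3%, at an adjusted p under 0.1 24.8%, and 3.81% to 17.9% when 1 array was left out. The other settings tried (no filter, the 50th percentile, the mean over a gene's clusters, trend and robust options, and all clusters tested singly) left both member counts within 1.5 times. The block changed calls of named members only as stated for Kcne4, Kcnq1 and Kcnk6. Changes that turned sign were those of 4 named members that did not pass. Kcna5 had -0.0017 after median-centring, -0.12 after quantile normalization, -0.048 with array weights and -0.13 to 0.24 when 1 array was left out. Kcnd3 had -0.046 and -0.10, and Kcng3 -0.019 and -0.13, after median-centring and quantile normalization, and Kcnmb1 -0.18 to 0.023 when 1 array was left out. The number of arrays, 3 per group, limits the precision of each value. The cause of these shifts was not tested.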

Other observations

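Kcnq1ot1, the long antisense transcript that overlaps Kcnq1, had 7.91, 7.93 and 7.86 log2 units in metformin kidneys, against 7.27, 7.47 and 7.36 in saline kidneys. The groups did not overlap, and the transcript rose by 0.54 ± 0.09 (SE, limma; adjusted p = 0.0139). The call held after median-centring (0.45, adjusted p = 0.0285) and quantile normalization (0.33, adjusted p = 0.0295), and in 5 of 6 fits that left out 1 array, the exception being that without saline replicate 1 (adjusted p = 0.0566). The sense gene Kcnq1 had a change of 0.41 (adjusted p = 0.0635). The strand that the probes of each read was not checked here.

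The 27 potassium channel genes below the filter were tested in a limma fit without it. None of the 27 was called, against 10.5% of the 30142 genes in that fit, and 0 had an unadjusted p under 0.05, against 25.4% of them. Kcna2 had the smallest adjusted p of them, 0.263. A further 3 clusters carry a potassium channel name together with a second symbol and were not analysed here.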
